A study of Mus musculus with 18 samples.

Results

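The 10 genes of a gastric-type epithelium programme followed here in mouse pancreas were the gastrokines Gkn1, Gkn2 and Gkn3, the trefoil factors Tff1 and Tff2, the mucins Muc5ac and Muc6, the aspartic protease Ctse, the hormone gene Gast and the annexin gene Anxa10. They were picked by symbol from a table of unique molecular identifier (UMI) counts, in which a UMI marks a captured molecule, and all 10 of 10 had a row among its 25651 genes. The table covers pancreas from 18 mice aged 20 weeks, kept on a mixed background of the strains 129Sv and C57BL/6, with 1 library per mouse. The groups are named by genotype: WT (wild type, 6 mice), KPC (7) and KPC ASC KO (5). In this field KPC stands for mice that develop pancreatic cancer through transgenes switched on in pancreatic epithelium, and ASC is the inflammasome adaptor that Pycard encodes. Alleles, the Cre driver, sex, litter, batch and histology are not in the labels. Each mouse has its own number, and no label says whether mice of a group were littermates, so p-values measure the spread between these mice.

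The surface of the normal stomach is covered by mucous cells that secrete MUC5AC together with TFF1 and the gastrokines, while deeper gland mucous cells secrete MUC6 together with TFF2. Trefoil factors are small secreted peptides that bind mucins and aid repair of the epithelium, and gastrokines are secreted proteins of the gastric mucosa. The normal pancreas makes little of most of these products, whereas early ductal lesions of the pancreas are known for a gastric-like programme that includes TFF1, MUC5AC, MUC6, GKN proteins, CTSE and ANXA10. The stomach and duodenum lie against the pancreas, so the genes were set beside fixed marker lists of stomach glands and of intestine.

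Levels are given as normalised CPM, counts divided by the library total after scaling with edgeR's TMM factors (trimmed mean of M values), unless counts are named. Library totals ran from 294077 to 416879 counts in WT, from 452472 to 1626977 in KPC and from 374432 to 647947 in KPC ASC KO, the deepest being KPC mouse 43. Pycard, the gene targeted in the third group, averaged 58.6 ± 6.95 normalised CPM (SD, n = 6) in WT, 70.0 ± 24.2 (n = 7) in KPC and 19.9 ± 11.7 (n = 5) in KPC ASC KO. Acinar enzyme genes, which define normal exocrine pancreas, were abundant in every library, with 17 of 17 listed genes tested. Their summed level was 355440 to 658817 normalised CPM in WT, 12821 to 245990 in KPC and 161266 to 581202 in KPC ASC KO. In 4 KPC mice, numbers 40, 89, 145 and 154, the summed level of 11 B cell genes was 666 to 1224 normalised CPM, against 29.8 to 245 in the other 14 mice. A change is called at an adjusted p under 0.05 in edgeR's quasi-likelihood test over the 6920 genes that passed a filter on low counts. Of the 10 gastric genes 9 passed that filter. Gast was tested without the filter, over all 25651 genes. In bulk tissue, fewer cells of a type and less RNA per cell cannot be told apart.

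**Figure D1:**
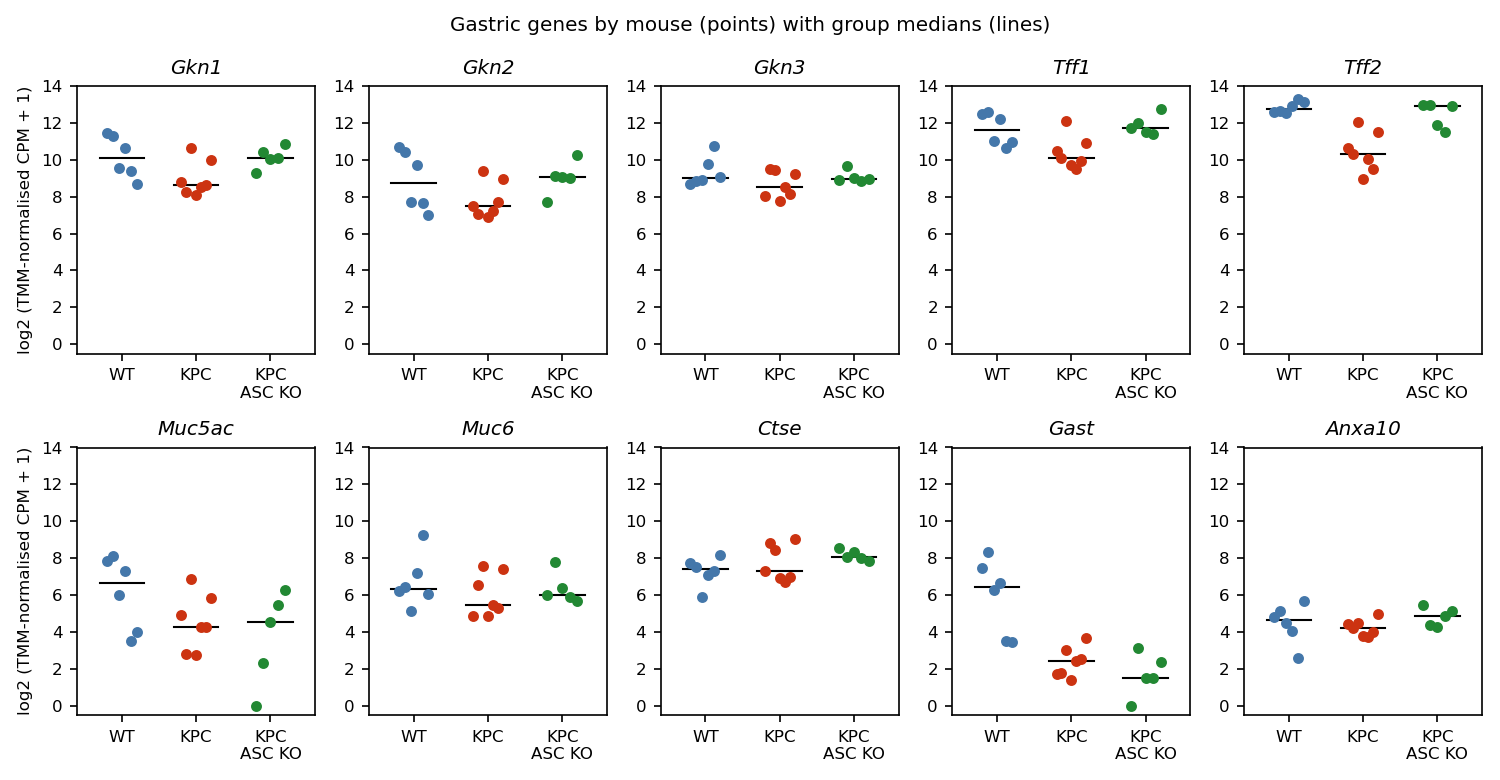
Level of each gene in each mouse, as log2 of TMM-normalised CPM plus 1 on the vertical axis, by group on the horizontal axis. Points are mice (6 WT, 7 KPC, 5 KPC ASC KO) and lines are group medians. Tff2 separates all 7 KPC mice from all 6 WT mice, Gast is highest in 4 WT mice, and the other genes overlap between KPC and WT.

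Between KPC and WT, 2 of the 9 tested genes fell, Tff2 and Tff1, and none rose. In the same comparison 29.9% of all tested genes were called and 15.1% were called lower, so the share of gastric genes called is not set apart from the table as a whole. The median log2 fold change of the 9 genes was -1.19, beside 0.06 over all tested genes. From KPC to KPC ASC KO, 1 of the 9 rose, Tff2, where 9.42% of all genes were called and 6.73% were called higher. The median of the 9 was 0.66, beside -0.05 over all genes. Between KPC ASC KO and WT, none of the 9 was called by edgeR, where 0% of all genes were; unadjusted p was under 0.05 for 691 of the 6920 genes, and DESeq2 called 8. The KPC group enters the first and second of these comparisons, so the values in them are not independent.

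The fold changes depend on how libraries are scaled. Scaling by total counts instead of TMM moved the median log2 fold change of all genes from 0.06 to 1.41 for KPC against WT and from -0.05 to -1.15 for KPC ASC KO against KPC. It moved the share of calls that were higher from 49.4% to 96.9% in the first comparison and from 71.5% to 2.73% in the second. On that scale 82.1% of all tested genes were called for KPC against WT and 75% for KPC ASC KO against KPC, beside 2 of 9 and 3 of 9 gastric genes. The fold changes of these 2 comparisons are therefore given below on both scales, and some genes also as a ratio to another gene of the same library, which no scaling can alter.

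**Figure D2:**
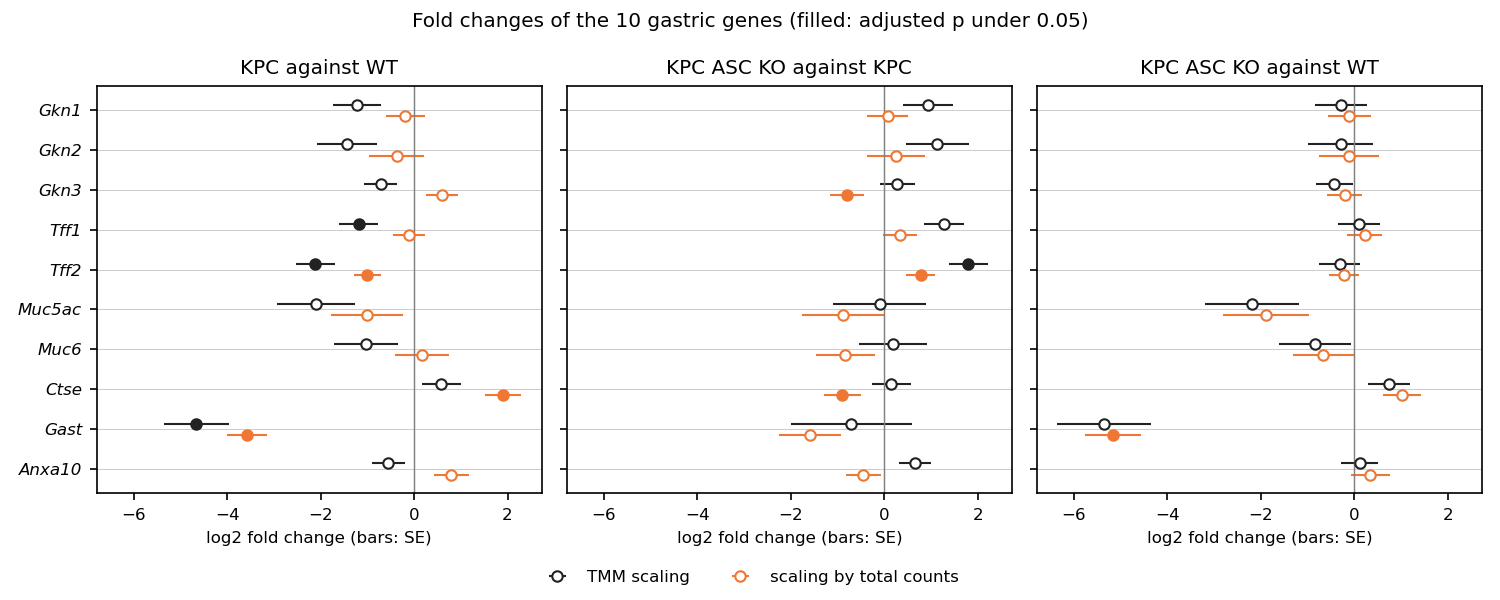
Log2 fold changes (horizontal axis) with standard errors (bars) of the 10 genes (vertical axis) in the 3 comparisons, with TMM scaling in black and scaling by total counts in orange; filled points have an adjusted p under 0.05 in edgeR. Gast is from the fit without a filter on low counts. Tff2 is called on both scales in KPC against WT and in KPC ASC KO against KPC, whereas Gkn3, Muc6 and Anxa10 change sign with the scale in both comparisons and Ctse in the second.

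Tff2, the trefoil peptide of gland mucous cells, which is also known from acinar tissue of the pancreas, gave the clearest difference. Its level was 5895 to 10166 in WT, with a median of 7045, and 505 to 4219 in KPC, with a median of 1281. In KPC ASC KO it was 8050, 8126, 3794, 2879 and 7595 in mice 318, 335, 377, 384 and 388. All 7 KPC mice were below all 6 WT mice, 3 of the 5 KPC ASC KO mice were above all KPC mice, and the remaining pair fell among the KPC values. Tff2 is 1 of 10 gastric genes whose KPC and WT values did not overlap, and 8.86% of all tested genes did the same. None of the 10 was without overlap between KPC ASC KO and KPC, as 2.3% of all tested genes were.

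The level of Tff2 averaged 7547 ± 1767 (SD, n = 6) in WT, 1751 ± 1333 (n = 7) in KPC and 6089 ± 2541 (n = 5) in KPC ASC KO. KPC against WT gave a log2 fold change of -2.11 with a standard error of 0.41 (edgeR, adjusted p = 0.000831). An exact two-sided permutation test of the mean levels gave p = 0.00117, the smallest that 7 against 6 mice allow. By total counts the log2 fold change was -0.999 (edgeR, adjusted p = 0.00348), and the values as shares of all counts did not overlap either, as in 27% of all tested genes on that scale and 0.91% with KPC lower. KPC ASC KO against KPC gave 1.80 with a standard error of 0.42 (edgeR, adjusted p = 0.0121; exact two-sided permutation p = 0.0101), and 0.78 by total counts (adjusted p = 0.0253). That rise was no longer called without the 4 B-cell-rich KPC mice, at 1.14 (edgeR, adjusted p = 0.307), or with only the 2 groups in the fit, at 1.80 (adjusted p = 0.0530). KPC ASC KO and WT differed by -0.31 (edgeR, adjusted p = 0.866).

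Tff2 followed the acinar genes from mouse to mouse. Spearman's rho between its level and the summed acinar level was 0.95 over all 18 mice and 0.95 over the 12 KPC and KPC ASC KO mice. Over the 12, rho with the acinar list was also 0.87 for Tff1, 0.81 for Gkn1, 0.80 for Gkn2 and 0.73 for Anxa10. The remaining gastric genes had 0.035 to 0.47. With a list of islet genes Tff2 had rho 0.67 over 18 mice and 0.85 over the 12. Over the 12, rho with the islet list was 0.87 for Tff1, 0.85 for Gkn1, 0.87 for Gkn2 and 0.50 for Anxa10. For Gkn1 and Gkn2 it was above the value for the acinar list. The remaining gastric genes had 0.18 to 0.71 with the islet list. The values share library and scaling, so these are descriptions only. Per 1000 acinar counts of the same library, Tff2 had 13.8 to 22.3 counts in WT, and the KPC ASC KO mice held 13.8 to 17.8. The same ratio was 16.9 to 35.2 in 6 of the KPC mice and 99.9 in KPC mouse 43, which had the lowest acinar level of all. Mice 377 and 384, the low pair of the KPC ASC KO group for Tff2, were also the lowest of that group for the acinar list, at 216085 and 161266. KPC mouse 48, the highest KPC mouse for Tff2, was the highest KPC mouse for the acinar list, at 245990. All 17 acinar genes fell in KPC (16 by total counts) and 15 of 17 rose in KPC ASC KO against KPC on both scales; their part in the Tff2 result was not tested.

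Tff1, the trefoil peptide of surface mucous cells, lies close to Tff2 in the trefoil gene cluster (mm10 coordinates as deposited, chromosome 17, 31161395 to 31165277 for Tff1 and 31141049 to 31144282 for Tff2, both on the minus strand). Its level was 1574 to 6146 in WT (median 3407), 731 to 4420 in KPC (median 1108) and 3397, 4044, 2863, 2715 and 6857 in KPC ASC KO mice 318, 335, 377, 384 and 388. The WT mice fell into a high set of 69, 1197 and 1213 and a low set of 1202, 1237 and 1238, and 5 of 7 KPC mice lay below every WT mouse. KPC mouse 48 lay between these sets.

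The log2 fold change of Tff1 for KPC against WT was -1.19 with a standard error of 0.42 (edgeR, adjusted p = 0.0353; exact two-sided permutation p = 0.0443). This call was lost under total counts, where the value was -0.12 (edgeR, adjusted p = 0.748), and on leaving out any 1 of 8 of the 13 mice, where the adjusted p rose as far as 0.0936. KPC ASC KO against KPC gave 1.28 with a standard error of 0.43 (edgeR, adjusted p = 0.0632), and 0.34 by total counts (adjusted p = 0.374). Without KPC mouse 48 it was 1.76 (edgeR, adjusted p = 0.00193). GENCODE M21 places the antisense gene Gm15318 over Tff1, and no source used here says whether counting used the strand, so reads of the pair may be mixed.

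The ratio of the trefoil pair does not depend on scaling. Counts of Tff2 per count of Tff1 ran from 1.03 to 6.46 in WT, from 0.59 to 1.5 in KPC and from 1.06 to 2.37 in KPC ASC KO. WT mice 1237 and 1238 stood highest, at 6.46 and 4.48, and WT mice 69 and 1197, at 1.06 and 1.03, lay inside the KPC range. KPC mice 48, 89 and 154 were the ones with fewer Tff2 than Tff1 counts. In the 6 WT mice the levels of the pair ran in opposite order (rho -0.60), while in the 12 KPC and KPC ASC KO mice they ran together (rho 0.92).

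**Figure D3:**
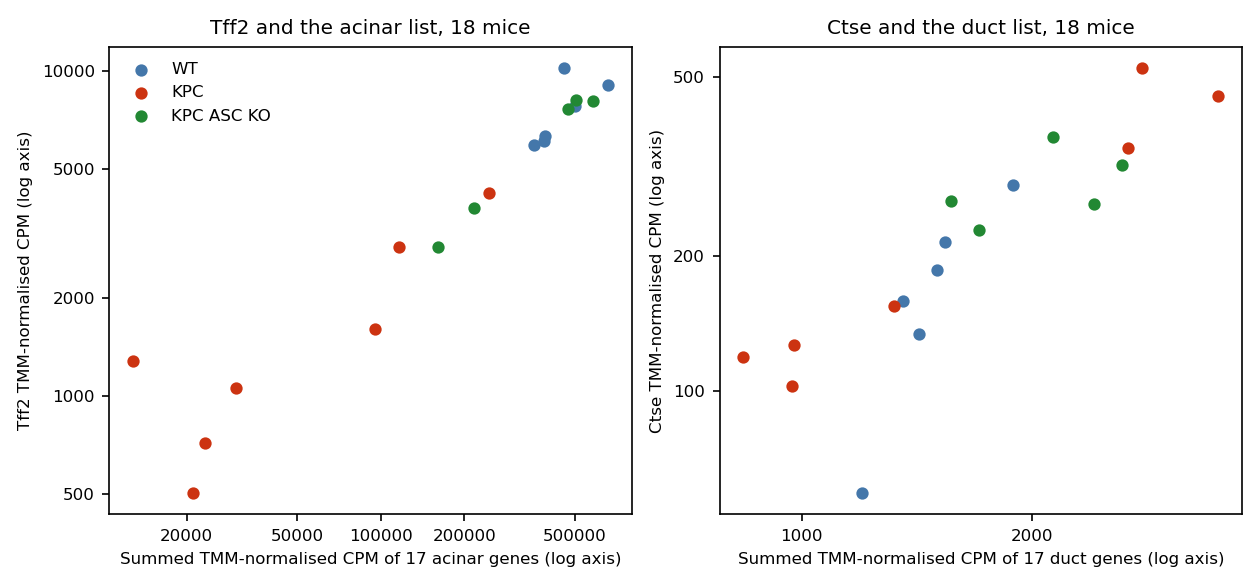
Left, Tff2 level against the summed level of 17 acinar genes; right, Ctse level against the summed level of 17 duct genes; all axes are TMM-normalised CPM on log scales, and each point is 1 of 18 mice, coloured by group. Both genes rise along their list across groups, with rho 0.95 in each panel, and KPC mouse 43 (acinar level 12821) lies above the Tff2 trend.

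The 3 gastrokine genes sit side by side within 43.3 kb of chromosome 6 (mm10). Gkn1 spans 87345650 to 87350942 on the minus strand, Gkn2 87373357 to 87379497 on the plus strand and Gkn3 87383256 to 87388935 on the minus strand. Their stretches of 120 bases before the RefSeq start (GRCm38.p6), which for Gkn1 and Gkn2 lies slightly inside the deposited gene span, are shown because these neighbours differed in how their levels varied from mouse to mouse, and that of Muc6 because its level varied with Gkn3. Capitals mark the letters GATAA or TTATC, the core of the GATA factor motif on either strand, and TATAA or TTATA, the core of the TATA box on either strand.
Gkn1, chr6:87350916-87351035, minus strand: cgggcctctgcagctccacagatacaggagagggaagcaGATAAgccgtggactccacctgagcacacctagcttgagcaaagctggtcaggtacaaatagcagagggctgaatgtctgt
Gkn2, chr6:87373245-87373364, plus strand: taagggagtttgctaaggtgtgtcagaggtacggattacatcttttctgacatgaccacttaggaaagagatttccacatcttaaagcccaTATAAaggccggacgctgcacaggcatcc
Gkn3, chr6:87388936-87389055, minus strand: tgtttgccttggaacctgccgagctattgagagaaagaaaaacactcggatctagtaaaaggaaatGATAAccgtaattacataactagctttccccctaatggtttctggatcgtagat
Muc6, chr7:141655394-141655513, minus strand: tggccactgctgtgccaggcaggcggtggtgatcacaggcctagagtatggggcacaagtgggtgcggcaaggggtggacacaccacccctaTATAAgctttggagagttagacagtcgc
The GATA letters begin 81 bases before the start in Gkn1 and 54 bases before it in Gkn3, and are not in the Gkn2 or Muc6 window. The TATA letters are in the Gkn2 and Muc6 windows. Over all 32851 RefSeq promoter windows of this length, 10.5% hold the GATA letters and 11.8% the TATA letters. Of the 10 gastric genes 6 have a promoter entry; the windows of Gast and Anxa10, not shown, hold TATA letters and no GATA letters. Gata4 and Gata6, factors of gastric and pancreatic epithelium, had 2 to 61 and 3 to 141 counts per library.

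Gkn1, the main gastrokine of surface mucous cells, was at 404 to 2845 in WT (median 1180), 273 to 1613 in KPC (median 397) and 621, 1352, 1041, 1104 and 1883 in KPC ASC KO mice 318, 335, 377, 384 and 388. The highest WT mice were 69 and 1197 and the lowest was 1238, and the WT range covered every KPC ASC KO value. In KPC, mice 48 and 210 stood above the other 5, 4 of which were below every WT mouse. In edgeR the log2 fold change for KPC against WT was -1.22 with a standard error of 0.51 (edgeR, adjusted p = 0.0835), and -0.18 by total counts. DESeq2 called it, at -1.21 (adjusted p = 0.0384). Without WT mice 69 and 1197 the value was -0.45 (edgeR, adjusted p = 0.570). It was 0.93 for KPC ASC KO against KPC (edgeR, adjusted p = 0.283), 0.07 by total counts (adjusted p = 0.873), and for KPC ASC KO against WT -0.29 (adjusted p = 0.912).

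Gkn2, a secreted gastrokine that pairs with TFF1 in the stomach, was at 126 to 1681 in WT (median 527), 121 to 674 in KPC (median 176) and 211, 555, 534, 510 and 1241 in KPC ASC KO mice 318, 335, 377, 384 and 388. The order of the 6 WT mice was the same as for Gkn1, and mice 318 and 388 were again the lowest and highest of the KPC ASC KO group. The log2 fold changes were -1.43 for KPC against WT, 1.14 for KPC ASC KO against KPC and -0.30 for KPC ASC KO against WT, none called by edgeR (adjusted p = 0.107, 0.297 and 0.931). By total counts the first of these was -0.38 and the second 0.25, neither called (edgeR, adjusted p = 0.548 and 0.700). DESeq2 called the first, at -1.41 (adjusted p = 0.0459). The level of Gkn2 followed that of Gkn1 with rho 0.95 over 18 mice, and every library held 1.52 to 3.61 counts of Gkn1 per count of Gkn2. Gkn1 followed Tff1 with rho 0.93 over 18 mice.

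Gkn3, a gastrokine found with gland mucous cells, went its own way. It was at 419 to 1687 in WT (median 514), 220 to 728 in KPC (median 373) and 473, 813, 520, 464 and 490 in KPC ASC KO mice 318, 335, 377, 384 and 388. WT mouse 1237 stood above the other WT mice and KPC ASC KO mouse 335 above its group, and the groups overlapped. The log2 fold change for KPC against WT was -0.71 (edgeR, adjusted p = 0.141), but 0.59 by total counts (adjusted p = 0.111). KPC ASC KO differed from KPC by 0.28 (edgeR, adjusted p = 0.675), but by -0.80 by total counts (adjusted p = 0.0493). Its rho with Gkn1 was 0.26 over 18 mice, and Gkn3 counts per Gkn1 count ran from 0.15 to 2.53 in WT, from 0.44 to 2.40 in KPC and from 0.26 to 0.76 in KPC ASC KO. WT mouse 1237 and KPC mouse 43 held the highest of these ratios.

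**Figure D4:**
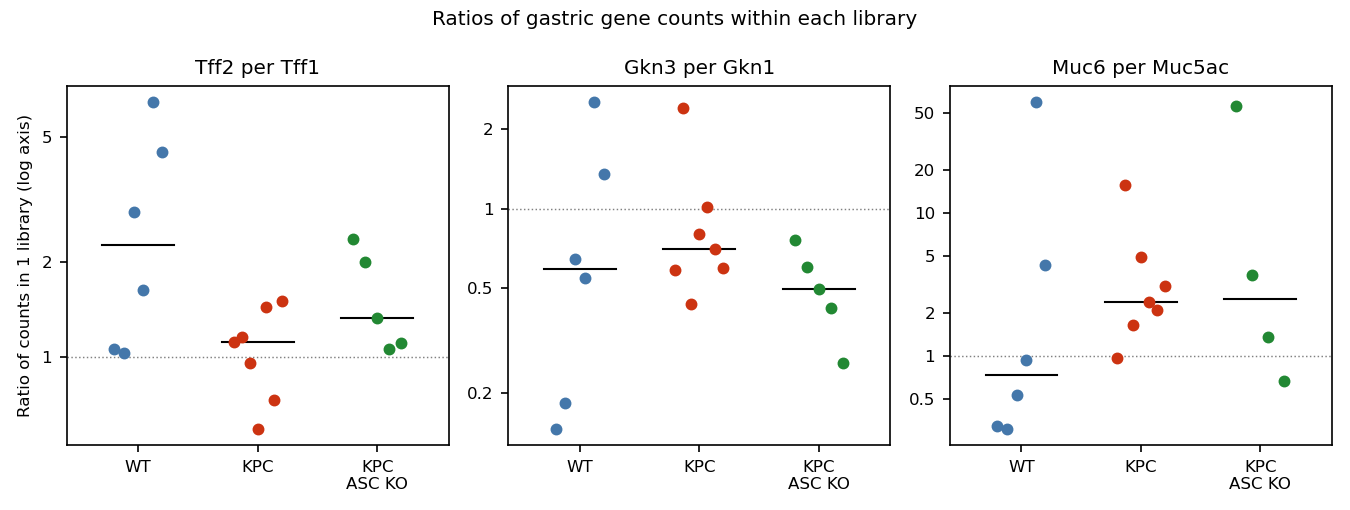
Ratios of counts within each library on log axes, by group: Tff2 per Tff1, Gkn3 per Gkn1 and Muc6 per Muc5ac. Points are mice, lines are group medians and the dotted line marks equal counts; KPC ASC KO mouse 318, with 0 Muc5ac counts, has no point in the third panel. WT mice spread from 0.15 to 2.53 for Gkn3 per Gkn1 and from 0.31 to 59.0 for Muc6 per Muc5ac.

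Muc5ac, the gel-forming mucin of surface mucous cells (chromosome 7, 141788972 to 141819231, plus strand, mm10), had 2 to 81 counts per WT library, 11 to 48 per KPC library and 0, 1, 12, 23 and 18 in KPC ASC KO mice 318, 335, 377, 384 and 388. As levels these were 10.3 to 279 in WT (median 109), 5.84 to 115 in KPC (median 18.6) and 0, 3.91, 22.3, 42.7 and 76.0 in KPC ASC KO. The 0 in mouse 318 allows a level of up to 8.55, taken as 3 counts and covering counting error only. WT mice 69, 1197 and 1213 were above every KPC mouse and WT mice 1237 and 1238 among the lowest. KPC against WT gave a log2 fold change of -2.09 with a standard error of 0.83 (edgeR, adjusted p = 0.0687), and -1.01 by total counts (adjusted p = 0.227). It was called by limma-voom, at -2.45 (adjusted p = 0.0428). It was -2.19 for KPC ASC KO against WT (edgeR, adjusted p = 0.474) and -0.10 for KPC ASC KO against KPC (adjusted p = 0.971), or -0.88 by total counts (adjusted p = 0.357).

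Muc6, the gel-forming mucin of gland mucous cells, lies in the same mucin cluster (141633456 to 141655319, minus strand). It was at 33.9 to 605 in WT (median 80.5), 28.1 to 190 in KPC (median 42.9) and 62.7, 219, 81.6, 57.5 and 50.7 in KPC ASC KO mice 318, 335, 377, 384 and 388. WT mouse 1237 and KPC ASC KO mouse 335, the mice highest for Gkn3 in their groups, were the highest for Muc6 as well. The log2 fold change for KPC against WT was -1.03 (edgeR, adjusted p = 0.270) with WT mouse 1237 and 0.01 without it. By total counts it was 0.17 (adjusted p = 0.793). Between KPC ASC KO and KPC it was 0.19 (edgeR, adjusted p = 0.908), and -0.83 by total counts (adjusted p = 0.222).

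The mucin pair split the WT mice. Counts of Muc6 per count of Muc5ac were 0.31 to 0.93 in WT mice 69, 1197, 1202 and 1213, 4.33 in mouse 1238 and 59.0 in mouse 1237, the last from 118 Muc6 counts and 2 Muc5ac counts. The ratio was 0.96 to 15.5 in KPC, highest in mouse 43, and 0.67 to 56.0 in the 4 KPC ASC KO mice where it is defined. Gkn3 and Muc6 followed each other with rho 0.85 over 18 mice and 0.95 over the 12 KPC and KPC ASC KO mice, whereas Muc5ac and Muc6 had rho 0.05 over 18. Tff2, the third gland mucous product, followed Muc6 less closely, with rho 0.53 over 18 mice.

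Ctse encodes cathepsin E, an intracellular aspartic protease of gastric surface epithelium that is also known from pancreatic ductal lesions (chromosome 1, 131638306 to 131675505, plus strand, mm10). It had 14 to 63 counts per WT library, 138 to 1462 per KPC library and 54 to 172 per KPC ASC KO library. As levels these were 59.4 to 288 in WT (median 173), 103 to 524 in KPC (median 155) and 368, 266, 319, 262 and 228 in KPC ASC KO mice 318, 335, 377, 384 and 388. KPC mice 43, 48 and 210 were above every WT mouse, and the 4 B-cell-rich KPC mice were at 103 to 155, within the WT range. By share of all counts, all 7 KPC mice were above all 6 WT mice, as in 26.1% of all tested genes.

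The log2 fold change of Ctse for KPC against WT was 0.58 with a standard error of 0.42 (edgeR, adjusted p = 0.309). It was 1.91 by total counts (edgeR, adjusted p = 0.000203) and, with TMM, 1.34 without the 4 B-cell-rich mice (adjusted p = 0.00480). Between KPC ASC KO and KPC it was 0.15 (edgeR, adjusted p = 0.863), but -0.90 by total counts (adjusted p = 0.0422). Between KPC ASC KO and WT it was 0.74 (edgeR, adjusted p = 0.603) and 1.01 by total counts (adjusted p = 0.472).

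Ctse followed the duct genes. Its rho with the summed duct level was 0.95 over 18 mice and 0.92 over the 12 KPC and KPC ASC KO mice, beside 0.18 with the acinar list over 18. With other genes of gastric-type epithelium, described below, it was 0.57 over 18 mice and 0.94 over the 12. With intestinal genes without Zg16 and Dmbt1, also described below, it was 0.68 and 0.87. Per 1000 duct counts of the same library, Ctse had 49.5 to 152 counts in WT, 105 to 188 in KPC and 108 to 172 in KPC ASC KO, a ratio that overlapped between groups. The summed duct level was 1200 to 1889 in WT, 839 to 3509 in KPC and 1571 to 2624 in KPC ASC KO. Of 13 tested duct genes 1 rose in KPC, Spp1, which encodes osteopontin, at 1.54 (edgeR, adjusted p = 0.00951), whereas 12 of 13 rose by total counts. Per 1000 acinar counts, Ctse had 0.17 to 0.55 counts in WT, 0.48 to 1.62 in KPC ASC KO and 1.41 to 35.5 in KPC, where every KPC mouse stood above every WT mouse. The acinar sum itself, as a share of all counts, was 273969 to 335289 CPM in WT and 25348 to 226540 CPM in KPC. A lower denominator raises the ratio, so it cannot tell a change in Ctse from the fall in acinar counts. No share over all genes was taken for it.

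Against the B cell list Ctse ran the other way, with rho -0.81 over 18 mice and -0.95 over the 12 KPC and KPC ASC KO mice. The part of lymphoid RNA in its level was not tested. Of the other aspartic proteases listed, 5 were tested. Napsa rose in KPC, at 2.51 (edgeR, adjusted p = 0.000857), and was lower in KPC ASC KO than in KPC, at -1.59 (adjusted p = 0.0215). Pgc, the pepsinogen of gastric chief and gland mucous cells, fell in KPC, at -3.91 (edgeR, adjusted p = 0.00259). By total counts 4 of the 5 rose in KPC and Pgc again fell, at -2.54 (adjusted p = 0.00875).

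Gast encodes gastrin, the hormone of antral G cells that drives acid secretion (chromosome 11, 100334407 to 100336996, plus strand, mm10). Its counts were 51, 94, 18, 19, 2 and 2 in WT mice 69, 1197, 1202, 1213, 1237 and 1238. They were 2, 8, 3, 3, 7, 8 and 8 in KPC mice 40, 43, 48, 89, 145, 154 and 210, and 0, 2, 1, 1 and 1 in KPC ASC KO mice 318, 335, 377, 384 and 388. Most Gast counts came from WT mice 69 and 1197, and WT mice 1237 and 1238 had as few counts as the lowest KPC library.

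As levels Gast was at 10.1 to 324 in WT (median 87.2), 1.59 to 12 in KPC (median 4.35) and 0 to 7.81 in KPC ASC KO (median 1.86). In the fit without a filter, KPC against WT gave -4.66 with a standard error of 0.69 (edgeR, adjusted p = 0.000304), where 10.3% of all genes were called. Scaling by total counts gave -3.58 (edgeR, adjusted p = 1.35e-14). In normalised CPM 6 of 7 KPC mice were below all WT mice (exact two-sided permutation p = 0.00350). As shares of all counts 3 of 7 were (exact two-sided permutation p = 0.0221). Without WT mice 69 and 1197 the log2 fold change was -3.32 (edgeR, adjusted p = 5.48e-07). Without the 4 B-cell-rich KPC mice it was -4.32 (adjusted p = 0.0522). KPC ASC KO against WT gave -5.36 (edgeR, adjusted p = 0.0785), where 0.0468% of all genes were called. There the groups did not overlap, as in 0.983% of the 6920 genes that passed the filter, which leave Gast out. The exact two-sided permutation p was 0.00433, the smallest that 5 against 6 mice allow. The nearest values were 7.81 in KPC ASC KO mouse 335 and 10.1 and 10.3 in WT mice 1238 and 1237. Each of these rests on 2 counts, so library scaling alone sets them apart. The same contrast gave -5.17 by total counts (edgeR, adjusted p = 1.27e-13, where 0.394% of all genes were called) and -5.39 with DESeq2 (adjusted p = 1.89e-05). KPC ASC KO against KPC gave -0.70 (edgeR, adjusted p = 0.781), where 2.97% of all genes were called, from at most 8 counts per library. By total counts it was -1.60 (edgeR, adjusted p = 0.0599). As shares of all counts the means were 2.25 CPM in KPC ASC KO and 6.99 in KPC, with 4 of 5 KPC ASC KO mice below every KPC mouse (exact two-sided permutation p = 0.0152, not adjusted), whereas normalised CPM gave an exact permutation p of 0.414.

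Within WT mice Gast ranked with the surface mucous genes. Its rho was 0.94 with each of Gkn1, Gkn2, Tff1 and Muc5ac over the 6 WT mice, but -0.54 with Tff2 and -0.66 with Gkn3. Gast counts per Muc5ac count, a ratio chosen after the data were seen, were 0.63 to 1.2 in all 6 WT mice and 0.06 to 0.42 in the 7 KPC mice. In KPC ASC KO they were 0.04 to 0.08 in mice 377, 384 and 388, 2.0 in mouse 335, from 2 Gast counts and 1 Muc5ac count, and undefined in mouse 318. Ratios in WT mice 1237 and 1238 and in KPC mice 40, 48 and 89 also rest on 2 or 3 Gast counts. No share over all genes was taken for this ratio. Among the genes of the gastrin axis, 3 of 5 tested fell in KPC: Sst, for the somatostatin of D cells and islets, at -2.81 (edgeR, adjusted p = 0.00145), Cckar, for the cholecystokinin receptor, at -2.35 (adjusted p = 0.0111), and Pcsk2, a prohormone convertase, at -1.72 (adjusted p = 0.0203). By total counts Sst and Cckar were called lower and Pcsk2, at -0.32, was not (adjusted p = 0.562). Cckbr, the gastrin receptor gene, had 0 to 2 counts per library.

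Anxa10, an annexin gene of gastric mucous cells (chromosome 8, 62057042 to 62123150, minus strand, mm10), was the least counted gene that passed the filter, at 1 to 10 counts per WT library, 9 to 56 per KPC library and 5 to 15 per KPC ASC KO library. As levels these were 5.13 to 50.5 in WT (median 24.2), 12.4 to 30.0 in KPC (median 17.4) and 42.7, 19.5, 18.6, 27.8 and 33.8 in KPC ASC KO mice 318, 335, 377, 384 and 388. The WT range of levels covered all other mice. As shares of all counts, 4 of 7 KPC mice lay above every WT mouse (exact two-sided permutation p = 0.0291, not adjusted). The log2 fold change for KPC against WT was -0.55 (edgeR, adjusted p = 0.242), but 0.79 by total counts (adjusted p = 0.0531). For KPC ASC KO against KPC it was 0.66 (edgeR, adjusted p = 0.213), but -0.45 by total counts (adjusted p = 0.259).

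Markers of stomach glands were looked at in the same libraries. Of 13 listed genes 11 were in the table, and 2 passed the filter, Pgc and Ghrl. Their summed level was 66.6 to 878 in WT, 44.1 to 173 in KPC and 68.4 to 163 in KPC ASC KO. Atp4a and Atp4b, the acid pump of parietal cells, had 19 counts each in WT mouse 69 and at most 2 and 1 in any other mouse. Atp4b and the gastric chitinase gene Chia1 were at 0 in 16 of 18 libraries, and Chia1 had 57 counts in mouse 69. Cblif, for the intrinsic factor, had 13 counts in mouse 69 and 0 to 4 in the others.

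Pgc had 111 counts in WT mouse 69, 23, 7, 15, 0 and 1 in WT mice 1197, 1202, 1213, 1237 and 1238, 1 to 56 in KPC, with the 56 in mouse 43, and 2 to 7 in KPC ASC KO. Pga5, a pepsinogen gene of chief cells, had 18 counts in WT mouse 1202 and 0 to 4 in the others. Ghrl, for ghrelin of stomach and islet endocrine cells, had 7 to 38 counts in WT and 44 to 493 in KPC, with a log2 fold change of 0.14 (edgeR, adjusted p = 0.819), or 1.46 by total counts (adjusted p = 0.00897). The markers Atp4a, Atp4b, Chia1, Cblif and Pgc, but not Pga5 (0 counts), thus stood out in WT mouse 69. That mouse was also high for Gkn1, Gkn2, Tff1, Muc5ac and Gast. WT mouse 1197, as high for those genes, had 1 count each of Atp4a, Atp4b and Chia1. In WT mouse 1237, highest for Gkn3 and Muc6, the 4 markers Atp4a, Atp4b, Cblif and Pgc were at 0. Of the other listed stomach genes, Ghrl had 10 counts in that mouse, Cckbr 2 and Pga5 1, while Chia1, Hdc, Kcne2 and Aqp4 had 0. The part of stomach tissue in these levels was not tested.

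In the KPC and KPC ASC KO mice Atp4a had 0 to 2 counts per library and Atp4b 0. In the same mice Cblif had 0 to 3 counts, Pgc 1 to 56 and Gast 0 to 8. Tff1 had 1035 to 3564 counts there and Gkn1 218 to 974. The part of stomach tissue in these counts was not tested. Leaving WT mice 69 and 1197 out, an alternative chosen after the data were seen, left Tff2 the gene called among the 9 for KPC against WT, at -2.23 (edgeR, adjusted p = 0.00386). Tff1 was then at -0.67 (adjusted p = 0.299).

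Many of the listed intestinal markers were sparse and patchy, but Vil1, Lypd8, Phgr1, Lgals4, Zg16 and Dmbt1 had counts in all 18 libraries. Fabp2, Apoa4 and Alpi, genes of absorptive cells, reached 12, 45 and 34 counts in KPC mouse 145, and in WT their highest counts were 9 and 19 in mouse 1213 and 12 in mouse 1237. Of 19 listed intestinal genes 17 were in the table. Zg16 and Dmbt1, which acinar cells also make, were left out of a shorter list after the data were seen. Without them the summed level was 187 to 501 in WT, 120 to 501 in KPC and 282 to 393 in KPC ASC KO. With this pair it was 18608 to 34908 in WT and 1296 to 13806 in KPC. Of 6 tested, 3 fell in KPC, Lypd8, Zg16 and Dmbt1, at -2.14, -2.93 and -1.28 (edgeR, adjusted p = 0.000331, 0.00222 and 0.0293). By total counts Zg16 was the gene called lower. On that scale 3 others were called higher, Vil1, Phgr1 and Lgals4, at 2.10, 0.81 and 2.04 (edgeR, adjusted p = 0.000765, 0.0143 and 9.52e-05). KPC mouse 145 was at or below the KPC median of normalised CPM for each of the 10 gastric genes. Over 18 mice, rho with the shorter intestinal list was 0.70 for Muc6 and 0.69 for Gkn3. Over the 12 KPC and KPC ASC KO mice these were 0.76 and 0.75. The other gastric genes had 0.18 (Gast) to 0.68 (Ctse) over 18 mice. The part of intestinal tissue in these levels was not tested.

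Other genes of gastric-type epithelium were taken from a list of 30, of which 18 were tested. In KPC 1 rose and 5 fell. The gene that rose was Onecut2, a transcription factor, at 1.92 (edgeR, adjusted p = 0.0192). Those that fell were Psca, a surface antigen of gastric epithelium (-3.76), Bhlha15, a secretory cell factor shared with acinar cells (-3.06), Cldn18, a tight junction gene (-1.81), Sult1c2, a sulfotransferase (-1.28), and Galnt6, a mucin glycosyltransferase (-0.93). In KPC ASC KO against KPC, 3 rose: Cldn18 at 1.78, Psca at 2.58 and Bhlha15 at 2.18 (edgeR, adjusted p = 0.0135, 0.0141 and 0.0196). By total counts 8 of the 18 rose and 2 fell in KPC, Psca and Bhlha15, with Cldn18 at -0.52, Sult1c2 at 0.06 and Galnt6 at 0.38 not called. In KPC ASC KO against KPC, 2 rose and 6 fell on that scale. None was called between KPC ASC KO and WT on either. With TMM the list's median was -0.76, 0.34 and -0.12 in the 3 comparisons, beside 0.06, -0.05 and 0.00 over all genes.

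Tff3, the intestinal trefoil gene, had 1 to 11 counts in WT, 4 to 161 in KPC, highest in mice 43, 145 and 210, and 1 to 8 in KPC ASC KO, and was not called (KPC against WT 0.96, edgeR adjusted p = 0.512; KPC ASC KO against KPC -2.16, adjusted p = 0.253). By total counts Tff3 was called in both, at 2.12 and -3.04 (edgeR, adjusted p = 0.0378 and 0.0145). Among other mucins 2 were tested: Mucl3 fell in KPC, at -1.85 (edgeR, adjusted p = 0.0149), and Muc1, a membrane mucin, was at -0.91 (adjusted p = 0.0688); by total counts they were at -0.63 and 0.32, neither called. Of the tuft cell list 2 genes were tested and both rose in KPC, Ptgs1 at 1.62 and Dclk1 at 1.77 (edgeR, adjusted p = 0.00369 and 0.0104), as they did by total counts.

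The summed level of the 10 genes was 9626 to 17737 in WT, 2142 to 12314 in KPC and 8063 to 18459 in KPC ASC KO, most of it Tff1 and Tff2. KPC mice 48 and 210 were highest in their group and the B-cell-rich mice 89, 145 and 154 lowest. Over the 12 KPC and KPC ASC KO mice, the genes whose level ranked most like that sum were Asns, Extl3, Nucb2, Rps27l, Srp68 and Tob1, each with rho 0.986, then Arl1 and Gp2, each with 0.979. Gp2 encodes the main membrane protein of acinar zymogen granules, Asns encodes asparagine synthetase and Srp68 a subunit of the signal recognition particle. These are the closest 8 of 6920 genes, chosen by rank, and carry no test.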

How the data were processed

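Per the labels' protocols, 18 pancreas libraries were made from 20 ng of RNA each by oligo(dT) priming, with a sample index (8 bp) and a UMI (10 bp) in the primer. The authors deposited whole-number UMI counts per gene, not normalised. Per the submitters' processing notes, they used limma 3.50.0 and edgeR 3.36.0 in R 4.1.2 and the builds mm10 and GRCm38. How reads were aligned, which annotation release was used and how UMIs were collapsed is not given in the sources used here. Gene positions are those deposited and equal GENCODE M21 for all 10 genes.

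Groups came from the sample titles. The deposited counts were fitted here with edgeR 4.0.16 in R 4.3.3 (quasi-likelihood F test, robust, no covariate, all 18 mice in 3 groups) after filterByExpr (minimum count 10, smallest group 5), with TMM scaling and Benjamini-Hochberg adjustment over 6920 genes. Normalised CPM divides a count by the library's kept counts times its TMM factor. Gast used the same fit over 25651 genes without the filter. Alternatives were total-count scaling, no filter, DESeq2 1.42.0, limma-voom (limma 3.58.1), a fit of only the 2 groups, and leaving out mice. Exact permutation tests compare mean normalised CPM, or mean shares of all counts where stated, two-sided and not adjusted. Every gene in the list was named, with listed genes called in a comparison by order of p, up to 4 per list, stated markers, and the 8 genes most like the sum; Galnt6, Onecut2, Tff3, Muc1, Gata4, Gata6, Chia1, Pga5 and Ghrl were named after their values were seen. Ratios of a gene to a list or to another gene, and the intestinal list without Zg16 and Dmbt1, were chosen after the data were seen. The genes and lists were chosen with earlier results of these data known. No library was a copy of another in its group (lowest chi-square per degree of freedom 2.38). On simulated counts for the 6920 genes, the test recovered 32 of 100 genes changed 2-fold and 97 of 100 changed 4-fold for KPC against WT, 37 and 95 for KPC ASC KO against KPC, and 23 and 85 for KPC ASC KO against WT.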

Additional observations from a re-analysis of the deposited data

Results flagged for a closer look

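In 5 of 30 sets of values (10 genes in 3 groups) the highest mouse stood apart from the others of its group by Dixon's 95% criterion. For independent values with a normal spread, chance alone would mark about 1 in 20 sets. Normalised CPM need not have that spread, and the sets are not independent. Gkn3 and Muc6, with rho 0.85 over 18 mice, were marked in the same mice, so the 5 carry no test against that rate. Gkn3 was 1687 normalised CPM in WT mouse 1237, against 419 to 877 in the other 5, and Muc6 was 605 in the same mouse, against 33.9 to 144. Gkn3 was 813 in KPC ASC KO mouse 335, against 464 to 520 in the other 4, and Muc6 was 219 in the same mouse, against 50.7 to 81.6. Tff1 was 4420 in KPC mouse 48, against 731 to 1907 in the other 6.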

How the results depend on the processing

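No paired analysis was possible because no mouse number is shared between groups. Depth limits Gast, Muc5ac, Muc6 and Anxa10, and the labels hold no litter, sex or batch to adjust for. Against 2 genes called for KPC against WT, 1 was called with no filter, with only the 2 groups and without WT mice 69 and 1197, 4 with DESeq2, and 1 to 5 on leaving out 1 mouse (5 without KPC mouse 48). Against 1 for KPC ASC KO against KPC, 3 were called by total counts (1 higher and 2 lower, where 75% of all genes were called), 2 with DESeq2, 0 with only the 2 groups and 0 without the 4 B-cell-rich mice, and 1 to 2 on leaving out 1 mouse. For KPC ASC KO against WT leaving out 1 mouse gave 0 to 0. Over all genes, KPC ASC KO against KPC calls fell from 652 to 265 with only the 2 groups and to 1 without the 4 mice. DESeq2 called 810 of 6920 there, and leaving out 1 mouse gave 195 to 1066. KPC against WT calls fell from 2070 to 728 without the 4 mice. They were 1957 with only the 2 groups, 1320 without WT mice 69 and 1197 and 2153 with DESeq2. Leaving out 1 mouse gave 1745 to 2310, the most without KPC mouse 48. With no filter 10.3% of all genes were called for KPC against WT. Gast ran from -4.94 to -4.01 on leaving out 1 mouse for KPC against WT, and was -4.32, no longer called, without the 4 mice. For KPC ASC KO against WT it ran from -5.87 to -4.72 and was called by total counts (-5.17), by DESeq2 (-5.39) and without WT mice 69 and 1197 (-4.05). Signs turned by total counts for KPC against WT in Gkn3 (0.59), Muc6 (0.17) and Anxa10 (0.79), and for KPC ASC KO against KPC in Gkn3 (-0.80), Muc6 (-0.83), Ctse (-0.90) and Anxa10 (-0.45). Without the 4 mice they turned in Gkn3 (-0.29), Muc6 (-0.67) and Ctse (-0.60), with limma-voom in Muc5ac (0.14) and, against WT, Gkn2 (0.0496), and without WT mice 69 and 1197 in Gkn1 (0.48) and Gkn2 (0.82) for KPC ASC KO against WT. On leaving out 1 mouse, Muc6 ran from -1.33 to 0.0074 for KPC against WT; Muc5ac from -0.62 to 0.50 and Muc6 from -0.33 to 0.49 for KPC ASC KO against KPC; and Gkn1 from -0.51 to 0.0115, Gkn2 from -0.72 to 0.12, Tff1 from -0.19 to 0.30, Muc6 from -1.36 to 0.20 and Anxa10 from -0.0877 to 0.37 for KPC ASC KO against WT. The cause of these differences was not tested.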
